A study of Mus musculus with 2 samples.

Results

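A set of 10 receptor genes through which astrocytes are known to sense signals from neurons and vessels was followed across the cell classes of the adult mouse striatum. They were Adra1a, Adra2a and Adrb1 (noradrenaline), Ntsr2 (neurotensin), Grm3 and Grm5 (glutamate), Ednrb (endothelin), S1pr1 (sphingosine 1-phosphate), Adora1 (adenosine) and Cnr1 (endocannabinoids). They were taken by gene symbol, and all 10 were found among the 32285 genes of both count matrices. The cells came from the dissociated striatum of untreated adult mice, male by the study's methods (strain given as C57/Bl6J in one label and C57BL/6NTac in the protocol, age 8 to 10 weeks by the labels and partly younger by the study's methods). The suspension was passed through a fine filter that favours glia, and myelin was taken away by debris removal. Single cells were captured on the 10x Chromium platform in 2 libraries, both of the same untreated group, and the sources used here do not say how many mice went into each. The p-values below therefore rest on how differences between cell classes or groups varied over these 2 libraries, and on spread shared between genes. That variation may be technical. Both kit versions 2 and 3 were used, without a statement of which library had which.

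G protein-coupled receptors carry an extracellular signal to a G protein inside the cell. Receptors that couple to Gq (Adra1a, Grm5) release calcium from internal stores through phospholipase C and the inositol trisphosphate receptor, those that couple to Gi or Go (Adra2a, Grm3, Adora1, Cnr1) inhibit adenylyl cyclase, and those that couple to Gs (Adrb1) raise cyclic AMP. S1pr1 also couples to Gi, and Ednrb can use more than one G protein. In astrocytes these receptors are best known for calcium signals that follow noradrenaline release, for the control of glutamate uptake and metabolism, and for the exchange of signals with blood vessels.

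The 2 libraries held 6978 and 5437 barcodes and 44597660 and 37982720 UMIs (unique molecular identifiers, 1 per captured RNA molecule), and 11995 cells remained after removal of barcodes under 300 genes and of called doublets. A total of 9 barcodes occurred in both libraries. Clustering was run without the 10 receptors, and the clusters were named from marker genes. All 9 astrocyte markers were detected in the 2194 astrocyte-like cells (1219 and 975), with a summed level of 20552 and 22400 CPM (counts scaled to the same total in each class), and the sum was at most 1756 CPM in each of the other 8 classes compared. UMIs of markers of other classes were present too, since the 8 oligodendrocyte markers reached 2106 and 739 CPM in the astrocyte-like cells. Whether these came from free RNA or from mixed cells was not tested. The neuron-like class held 763 cells that kept that name at a finer clustering and 703 that were named oligodendrocyte-like there. Neuron values are therefore given for the finer clustering as well where they bear on a call or moved most. The neuroblast-like class held cycling cells. It also held UMIs of all 6 markers of ependymal cells, the ciliated lining of the ventricle (summed level 203 and 302 CPM). A level is given below as CPM of the UMIs summed over the cells of a class, first in library 1 and then in library 2. In this 3′ assay a molecule is counted once whatever the length of its gene. Capture may still differ between genes and was not checked, so an order of different genes by level is approximate.

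The start sites of 7 of the 10 genes were in the RefSeq promoter table (GRCm38.p6, 250 bases before to 50 after the start). The promoters of Ntsr2 and Grm3, which were highest in astrocyte-like cells, and of Ednrb, which astrocyte-like and oligodendrocyte precursor cells shared, are printed 5′ to 3′ on the strand of the gene. Capitals mark TTGGC or its reverse complement, the core motif of nuclear factor I, a family of transcription factors with members that act in astrocyte development. The Ntsr2 promoter is at chr12:16653220-16653519 (plus strand), that of Grm3 at chr5:9725303-9725602 (minus strand) and that of Ednrb at chr14:103843652-103843951 (minus strand).
Ntsr2 promoter: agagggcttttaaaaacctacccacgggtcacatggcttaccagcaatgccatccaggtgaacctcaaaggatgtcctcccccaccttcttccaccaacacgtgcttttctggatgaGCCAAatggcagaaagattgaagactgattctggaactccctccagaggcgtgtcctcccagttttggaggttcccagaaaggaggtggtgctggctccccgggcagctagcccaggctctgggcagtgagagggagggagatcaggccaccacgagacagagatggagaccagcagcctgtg
Grm3 promoter: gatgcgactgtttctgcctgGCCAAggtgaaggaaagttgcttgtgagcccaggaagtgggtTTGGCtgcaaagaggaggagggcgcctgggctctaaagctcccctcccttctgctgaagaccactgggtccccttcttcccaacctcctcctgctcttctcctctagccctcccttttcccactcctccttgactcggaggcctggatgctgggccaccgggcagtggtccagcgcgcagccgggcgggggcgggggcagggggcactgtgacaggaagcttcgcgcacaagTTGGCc
Ednrb promoter: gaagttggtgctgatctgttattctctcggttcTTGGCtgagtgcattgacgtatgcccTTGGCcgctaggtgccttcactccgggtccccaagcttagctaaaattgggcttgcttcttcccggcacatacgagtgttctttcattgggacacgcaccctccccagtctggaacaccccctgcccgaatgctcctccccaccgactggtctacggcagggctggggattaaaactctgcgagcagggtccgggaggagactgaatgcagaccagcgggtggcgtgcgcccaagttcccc
The motif occurred 1 time in the Ntsr2 window, 3 times in that of Grm3 and 2 times in that of Ednrb. Among the windows not printed, it occurred 2 times in that of Adrb1, a gene highest in microglia-like cells. It occurred 1 time in each window of Cnr1, a gene highest in neuron-like cells, and was absent from the windows of Adora1 and Adra2a. S1pr1, also highest in astrocyte-like cells, had no promoter there, and neither had Adra1a and Grm5. Of all 32851 promoters in the table, 46.7% held it at least 1 time, 14.4% at least 2 times and 3.75% at least 3 times, on either strand. These letter matches are a description of the windows and were not tested for binding.

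For Ntsr2, S1pr1 and Grm3 the astrocyte-like cells were above all 8 remaining classes, with an adjusted p under 0.05 in every pairing (edgeR quasi-likelihood test on summed counts with library as a block, Benjamini-Hochberg over all genes). Of the 15303 genes tested, 785 (5.13%) met that rule. The counts were scaled with TMM factors (trimmed mean of M values). Library sizes alone moved the median log2 fold change by 0.41 for OPC-like over astrocyte-like cells and by -0.16 to 0.22 for astrocyte-like cells over each of the other 7 classes, so fitted fold changes against OPC-like cells differ from the ratio of the CPM values. The finer clustering named the same 3 receptors, beside 554 of 14825 genes (3.74%). Of the other 7 receptors, 4 were higher in another class than everywhere else: Cnr1 and Grm5 in neuron-like, Adrb1 in microglia-like and Adora1 in oligodendrocyte precursor (OPC)-like cells. In all, 7 of 10 receptors led some class, beside 42.2% of all genes (34.2% at the finer clustering, where Adora1 led none and 6 did), and Ednrb, Adra1a and Adra2a led none.

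**Figure D1:**
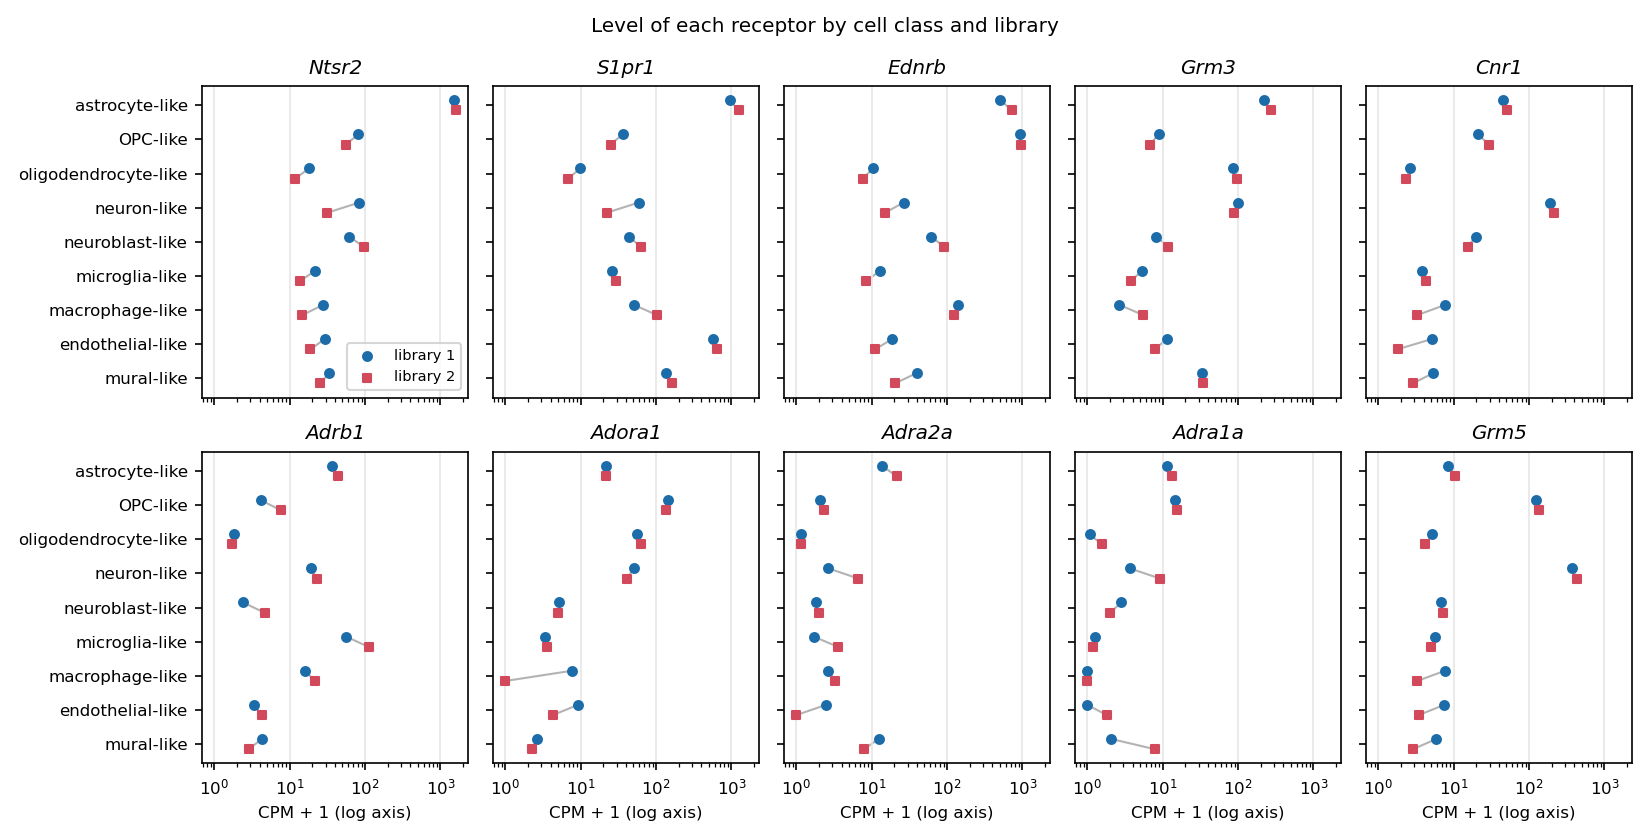
Level of each receptor (x axis, CPM + 1 on a log axis) in 9 cell classes (y axis), with 1 point per library (circle, library 1, and square, library 2, joined by a line). Ntsr2 stood at 1516 and 1603 CPM in astrocyte-like cells and below 100 CPM in each other class, whereas Grm5 was highest in neuron-like cells at 368 and 434 CPM.

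Noradrenaline reaches the striatum only sparsely, and 3 of its receptors were followed. Adra1a, the Gq-coupled alpha-1A receptor (chr14:66635251-66771168, plus strand, GRCm38), was at 10.4 and 12.1 CPM in astrocyte-like cells, at 13.6 and 14.6 in OPC-like cells, and at 2.66 and 8.24 in neuron-like cells. The astrocyte-like and OPC-like levels did not overlap between libraries but were close. Astrocyte-like over OPC-like cells gave a log2 fold change of 0.10 ± 0.45 (SE, adjusted p = 0.89), so no difference was detected, and its sign was negative with library sizes alone (-0.31, adjusted p = 0.61). The next step in the order, astrocyte-like over neuron-like, was 1.13 ± 0.51 (adjusted p = 0.078), and 0.83 ± 0.49 at the finer clustering (adjusted p = 0.16). Astrocyte-like cells were higher than the 6 other classes, where levels ran from 0 to 6.88 CPM, but the call against mural-like cells was lost under some alternatives (highest adjusted p 0.17). Adra1a UMIs in astrocyte-like cells numbered 43 and 51, which sets the precision of these values (exact Poisson 95% intervals 7.51 to 14 and 9.01 to 15.9 CPM, counting error only).

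Adra2a, the Gi-coupled alpha-2A receptor (chr19:54044151-54048982, plus strand), was at 12.8 and 20.4 CPM in astrocyte-like cells and at 11.3 and 6.88 in mural-like cells, the class of pericytes and smooth muscle. The difference between these classes did not pass the test (log2 fold change 0.92 ± 0.48, adjusted p = 0.12), and astrocyte-like cells were above the remaining 7 classes, all at or below 5.66 CPM. In thinned cells 2 of these calls were lost, against neuron-like (1.04, adjusted p = 0.19) and macrophage-like cells (adjusted p = 0.21). At the finer clustering 57 fibroblast-like cells separated from the mural-like cells and held 78.2 and 13.3 CPM of Adra2a. The 2 libraries disagreed there. In the pericyte-like clusters Adra2a ranged from 7.0 to 24.5 CPM.

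Adrb1, the Gs-coupled beta-1 receptor (chr19:56722199-56733113, plus strand), was at 35.9 and 42.9 CPM in astrocyte-like cells, the highest level of the 3 noradrenaline receptors there. Microglia-like cells held more, 55.1 and 110 CPM, and the groups did not overlap although library 2 was at the higher end. Astrocyte-like cells were lower by a log2 fold change of -1.26 ± 0.20 (adjusted p = 2.5e-05). Neuron-like cells followed at 18 and 22.1 CPM, below astrocyte-like cells (log2 fold change 1.00 ± 0.23 for astrocyte-like over neuron-like, adjusted p = 0.0017). At the finer clustering the neuron-like level rose to 32.0 and 34.1 CPM and the difference no longer passed (0.54 ± 0.29, adjusted p = 0.13). Macrophage-like cells, at 15 and 20.4 CPM, overlapped neuron-like cells.

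Ntsr2, the low-affinity neurotensin receptor (chr12:16653382-16660227, plus strand), had the highest level of the 10 in astrocyte-like cells. Its level was 1516 and 1603 CPM there, and in the other 8 classes it lay between 10.7 and 95.3 CPM. Neuroblast-like (60.7 and 95.3), OPC-like (80.7 and 54.5) and neuron-like cells (82.8 and 30.4) overlapped one another, and the step from neuroblast-like to OPC-like cells did not pass the test (adjusted p = 0.14). Astrocyte-like over neuroblast-like cells, the smallest of its 8 differences, was 4.44 ± 0.31 on the log2 scale (adjusted p = 2.6e-09). At the finer clustering 549 cells with cycling markers, which may include ependymal-like cells, were set apart from the neuroblast-like class. Astrocyte-like over neuroblast-like cells was then 5.85 ± 0.31, and neuron-like cells were closest (108 and 31.7 CPM, 4.88 ± 0.29, adjusted p = 1.7e-10). At the finest clustering a cluster of ependymal-like cells, the ciliated lining of the ventricle, held 408 and 476 CPM, above every cluster that was not astrocyte-like.

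Among the glutamate receptors the levels ran in opposite directions. Grm3, the Gi-coupled metabotropic receptor 3 (chr5:9485541-9725170, minus strand), was at 221 and 272 CPM in astrocyte-like cells, at 97.4 and 87.0 in neuron-like cells and at 85.6 and 97.2 in oligodendrocyte-like cells. Astrocyte-like levels were above both, and the other 2 classes overlapped. The log2 fold change was 1.19 ± 0.17 over oligodendrocyte-like cells (adjusted p = 9.8e-06) and 1.45 ± 0.18 over neuron-like cells (adjusted p = 3.0e-06). With the finer clustering neuron-like cells were at 66.3 and 48.4 CPM and oligodendrocyte-like cells at 102 and 109. Within the oligodendrocyte lineage the newly formed oligodendrocyte-like cluster held 14.9 and 24.2 CPM, below the 98.5 to 158 CPM of the other oligodendrocyte-like clusters. Mural-like cells were at 32.4 and 33.1 CPM, and at the finest clustering the pericyte-like clusters stood at 85.2 to 135 CPM and the smooth muscle-like cluster at 1.60 and 0 CPM.

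Grm5, the Gq-coupled metabotropic receptor 5 (chr7:87584168-88134907, plus strand), was at 7.48 and 9.49 CPM in astrocyte-like cells and at 368 and 434 CPM in neuron-like cells. OPC-like cells held 124 and 133 CPM, and in the remaining 6 classes levels ran from 1.88 to 6.67 CPM. Neuron-like and OPC-like cells thus stood apart from the rest. Astrocyte-like cells were lower than neuron-like cells by a log2 fold change of -5.44 ± 0.24 (adjusted p = 2.8e-10), and OPC-like over astrocyte-like cells was 3.42 ± 0.24 (adjusted p = 6.4e-09). The finer clustering placed neuron-like cells at 635 and 667 CPM. The step from astrocyte-like to neuroblast-like cells, the next lower class, did not pass (0.57 ± 0.30, adjusted p = 0.11).

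Ednrb, the endothelin B receptor (chr14:103814625-103844402, minus strand), was at 503 and 733 CPM in astrocyte-like cells and at 922 and 942 CPM in OPC-like cells. The OPC-like sums were higher in both libraries. The fitted difference, OPC-like over astrocyte-like, was 0.15 ± 0.26 with TMM factors (adjusted p = 0.67) and 0.58 with library sizes alone (adjusted p = 0.075), so no difference was detected under either scaling. Macrophage-like cells came next at 139 and 122 CPM, below astrocyte-like cells by 2.27 ± 0.31 on the log2 scale (adjusted p = 1.0e-05), and the ependymal-like cluster held 359 and 342 CPM. Endothelial-like cells, which face endothelin from the vessel side, were at 17.7 and 10.1 CPM.

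S1pr1, the receptor for sphingosine 1-phosphate that is widely known from endothelium (chr3:115710433-115715072, minus strand), was at 949 and 1246 CPM in astrocyte-like cells and at 563 and 636 CPM in endothelial-like cells. Astrocyte-like cells were higher in both libraries, with a log2 fold change of 0.91 ± 0.28 (adjusted p = 0.011). Mural-like cells followed at 133 and 163 CPM, then macrophage-like cells at 50.1 and 102 CPM, which did not differ from mural-like cells beyond their spread (adjusted p = 0.099). Endothelial markers summed to 3811 and 4706 CPM in mural-like cells, against 18526 and 21304 CPM in endothelial-like cells. Astrocyte-like over mural-like S1pr1 ran from 2.89 to 4.98 on the log2 scale over the alternatives. The part of endothelial RNA in the mural-like level was not tested. The capillary endothelial-like cluster stood at 586 and 638 CPM and the ependymal-like cluster at 239 and 280 CPM.

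Cnr1, the Gi-coupled CB1 receptor for endocannabinoids (chr4:33924593-33948831, plus strand), was at 187 and 214 CPM in neuron-like cells and at 44.4 and 50.5 CPM in astrocyte-like cells. Astrocyte-like cells were lower by a log2 fold change of -2.02 ± 0.22 (adjusted p = 7.9e-07), and at the finer clustering neuron-like cells reached 326 and 328 CPM. Astrocyte-like cells were in turn above OPC-like cells, at 19.9 and 28.3 CPM (1.37 ± 0.26, adjusted p = 3.8e-04), a call that was lost in thinned cells (0.55, adjusted p = 0.31). OPC-like and neuroblast-like cells did not differ beyond their spread (adjusted p = 0.60).

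Adora1, the Gi-coupled adenosine A1 receptor (chr1:134199223-134235431, minus strand, with an exon that overlaps Mybph on the opposite strand, in an assay that keeps strand), was at 20.5 and 20.4 CPM in astrocyte-like cells. OPC-like cells held 144 and 132 CPM, oligodendrocyte-like cells 55.5 and 62.3 CPM, and neuron-like cells 50.5 and 39.6 CPM. All 3 were above the astrocyte-like level, by a log2 fold change of -2.30 ± 0.22 for astrocyte-like over OPC-like cells (adjusted p = 1.9e-07) and 1.08 ± 0.23 for neuron-like over astrocyte-like cells (adjusted p = 8.2e-04). The latter was 0.85 ± 0.25 at the finer clustering (adjusted p = 0.0071), and it was lost with cells of under 20% mitochondrial UMIs, where astrocyte-like over neuron-like cells was -0.039 (adjusted p = 0.93). In that setting the neuron-like class (799 and 323 cells) had another make-up, with Bmp4, a marker of newly formed oligodendrocytes, among its top genes. The part of this in the lost call was not tested. OPC-like over oligodendrocyte-like cells was 0.56 ± 0.19 (adjusted p = 0.022), and this step rested on the settings: it was 1.22 with library sizes alone (adjusted p = 2.9e-05), 0.67 in DESeq2 (adjusted p = 0.092) and 0.25 at the finer clustering (adjusted p = 0.30). Newly formed oligodendrocyte-like cells held 24.7 and 25.3 CPM, below the 38.0 to 76.1 CPM of the other oligodendrocyte-like clusters.

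Set against each class in turn, more of the 10 receptors were higher than lower in astrocyte-like cells. Against endothelial-like, macrophage-like, mural-like and neuroblast-like cells 9 of 10 were higher in astrocyte-like cells and none was lower, where 28.4%, 26.3%, 26.3% and 27% of all genes were higher and 27.8%, 19.4%, 24.8% and 29.1% were lower. Against oligodendrocyte-like cells 9 were higher (29.6% of all genes) and Adora1 was lower (28.5%). Against microglia-like cells 8 were higher (29.8%) and Adrb1 was lower (30.6%). Against neuron-like cells 6 were higher (25.4%) and 3 were lower (25.3%), namely Cnr1, Grm5 and Adora1 (5 and 3 at the finer clustering). Against OPC-like cells 6 were higher (21.1%) and 2, Grm5 and Adora1, were lower (21.6%). Calls in these counts that at least 1 alternative lost were those of Grm5 and Adra1a against mural-like cells, of Grm5 against oligodendrocyte-like cells, of Adrb1, Adra2a, Adora1 and Cnr1 against macrophage-like cells, of Cnr1 against neuroblast-like and OPC-like cells, and of Adra2a, Adrb1 and Adora1 against neuron-like cells.

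**Figure D2:**
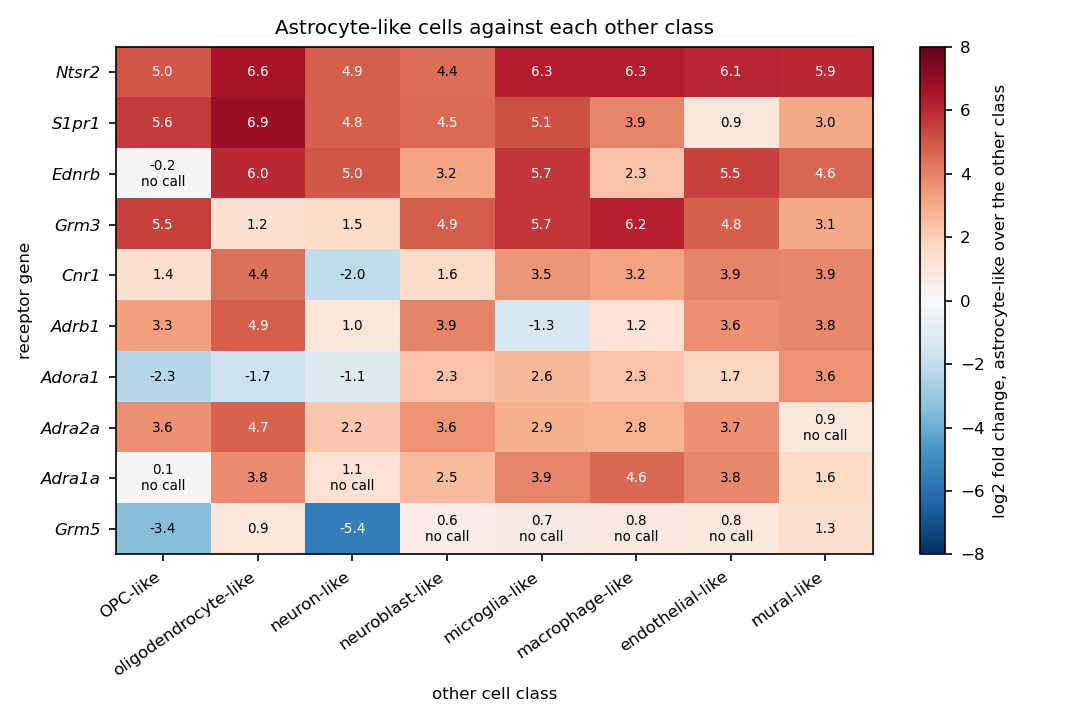
Fitted log2 fold change of each receptor (rows) in astrocyte-like cells over each other class (columns), red where astrocyte-like cells were higher, with "no call" where the adjusted p was 0.05 or above. The rows of Ntsr2, S1pr1 and Grm3 are red throughout, and the row of Grm5 is deepest blue against neuron-like cells (-5.4).

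The levels also differed in how many single cells they came from. Astrocyte-like cells were shallow (median 1894 and 2827 UMIs, against 6975 and 7222 in OPC-like cells), so each cell was thinned to 1000 UMIs and cells below that were left out (254 and 102 astrocyte-like cells). At that depth Ntsr2 had a UMI in 73.3% (exact binomial 95% interval 70.4 to 76.0) and 73.2% (70.1 to 76.1) of astrocyte-like cells. In oligodendrocyte-like cells, set beside them for their low level, the share was 1.92% and 1.5%, and the source of those UMIs was not tested. S1pr1 had a UMI in 52.3% (49.1 to 55.5) and 64.0% (60.7 to 67.2) of astrocyte-like cells and in 41.8% and 43.7% of endothelial-like cells. Both receptors thus had a UMI in more than 1 of every 2 astrocyte-like cells counted. Ednrb had a UMI in 33.9% and 43.3% of astrocyte-like and in 56.2% and 56.4% of OPC-like cells, beside 0.959% and 0.322% of oligodendrocyte-like cells. Grm3 had one in 15.8% and 22.3% of astrocyte-like cells and in 0.981% and 0.103% of microglia-like cells.

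The remaining 6 receptors were thinly spread. Cnr1 had a UMI in 3.11% and 3.09% of astrocyte-like cells, Adrb1 in 2.59% and 3.67%, Adora1 in 2.07% and 1.49%, Adra2a in 0.725% and 2.06%, and Adra1a in 1.04% and 0.687%. In oligodendrocyte-like cells the shares were 0.411% and 0.107% for Cnr1, 0% and 0.107% for Adrb1 and for Adra2a, and 0.137% and 0.107% for Adra1a, and in microglia-like cells the share of Adora1 was 0.491% and 0.207%. These comparison classes were picked per receptor for their low level, so a higher astrocyte-like share was likely beforehand. The astrocyte-like shares were above these in both libraries, although for Adra1a the exact binomial 95% intervals overlapped (0.253 to 1.49 in astrocyte-like and 0.00271 to 0.596 in oligodendrocyte-like cells of library 2), as they did for Adra2a in library 1 (0.292 to 1.49 and 0 to 0.504). Grm5 had a UMI in 0.933% and 0.687% of astrocyte-like cells and in 0.980% and 0.412% of endothelial-like cells, so its astrocyte-like share was near the share in endothelial-like cells. The summed counts of Grm5 were called higher in astrocyte-like than in oligodendrocyte-like (0.90 ± 0.27, adjusted p = 0.0087) and mural-like cells (1.33 ± 0.42, adjusted p = 0.013), and both calls were lost with doublets kept (0.45 and -0.27). Without thinning, the astrocyte-like shares were 81.9% and 90.8% for Ntsr2, 66.2% and 80.1% for S1pr1, 52.3% and 72.1% for Ednrb, 37.0% and 50.2% for Grm3, and between 2.21% and 15% for the other 6.

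Receptors were also counted per cell at the depth of 1000 UMIs. An astrocyte-like cell held UMIs of 1.86 and 2.15 different receptors of the 10 on average, 62.9% and 73.7% held at least 2, and 6.32% and 4.70% held none. The most in a single cell was 6. In OPC-like cells 24.0% and 17.6% held at least 2, in neuron-like cells 11.3% and 11.3%, and in oligodendrocyte-like cells 1.64% and 0.965%. The neuron-like class here includes the cells that the finer clustering named oligodendrocyte-like, and receptors per cell were not counted at that clustering. Cells with at least 2 of the receptors were thus most frequent among astrocyte-like cells in both libraries, where Ntsr2 and S1pr1 had the highest shares.

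**Figure D3:**
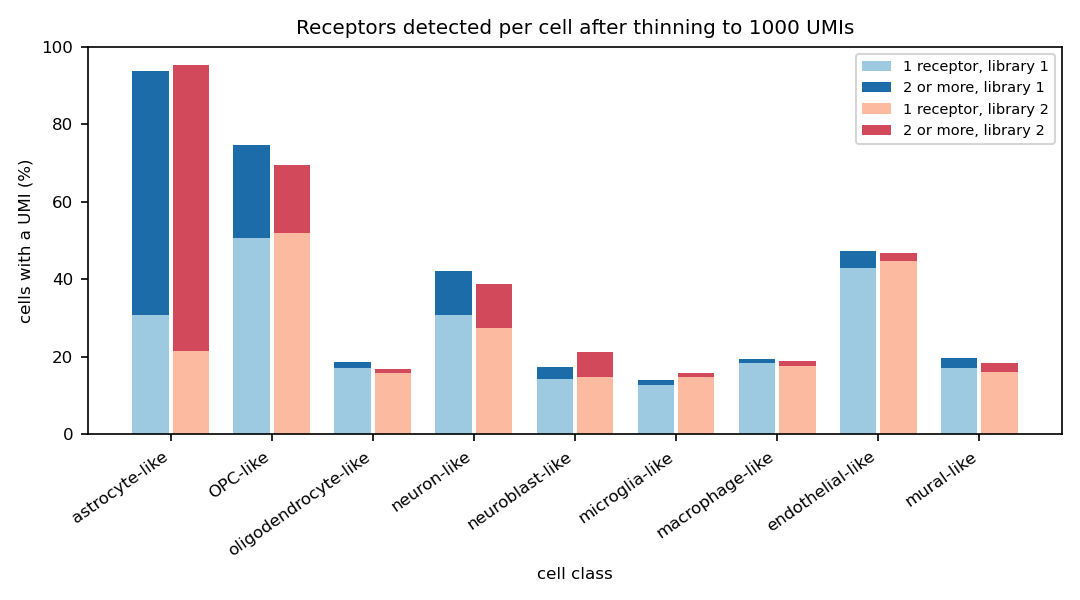
Share of cells (y axis, %) with a UMI of 1 receptor (light) or of 2 or more (dark) of the 10, by class (x axis) and library (blue, library 1, and red, library 2), after thinning to 1000 UMIs. Astrocyte-like cells reach 62.9% and 73.7% with 2 or more, and OPC-like cells 24.0% and 17.6%.

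Genes with the most similar pattern were sought among 12133 genes by Pearson correlation of log2(CPM + 10) over the 18 sums of 9 classes and 2 libraries, which share libraries and depth, so the values are descriptions. Ntsr2 was closest to Aldoc, the astrocyte form of the glycolytic enzyme aldolase (r = 0.99), then Acsbg1 and Slc25a18. S1pr1 was closest to Smpdl3a (r = 0.98), then Cyp2d22 and Prex2, and Ednrb to Lmo1 (r = 0.97), then Pank1 and Unc119. Grm3 was closest to Daam2 (r = 0.92), and Garem1 was also among its 3 closest genes. Cnr1 was closest to Gabra2, a GABA-A receptor subunit (r = 0.98), then Atp2b2, and Grm5 to Rimbp2 (r = 0.99), then Gpr158 and Lrfn5. Adora1 was closest to Lrrtm2 (r = 0.97), then Tmem101 and Olig1, a transcription factor of the oligodendrocyte lineage. Adrb1 was closest to Sirpa (r = 0.92), then Tspan33 and Tmem52. Adra2a was closest to Rgs6 (r = 0.94), then Ranbp3l and Slc7a11, and Adra1a to AC109619.1 (r = 0.95), then Shc3 and Adcyap1r1, the receptor for the peptide PACAP.

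A list of 105 other G protein-coupled receptors, of which 71 could be tested, put the 10 in context. In astrocyte-like cells 4 of the 71 were higher than in every other class: Gpr37l1, Gabbr2, Hrh1 and Adora2b. That share is near the 5.13% of all genes. Gpr37l1, an orphan receptor of glia, was at 2258 and 2406 CPM in astrocyte-like cells and at 1164 and 1054 CPM in OPC-like cells (log2 fold change 1.52 ± 0.30, adjusted p = 5.1e-04), and it was the only receptor on either list above Ntsr2 in astrocyte-like cells. Gabbr2, a subunit of the GABA-B receptor, was at 97.0 and 142 CPM, Adora2b, a Gs-coupled adenosine receptor, at 66.8 and 67.9 CPM, and Hrh1, the histamine H1 receptor, at 17.4 and 31.8 CPM. The call for Adora2b was lost at the finer clustering. The 5 of the list with the highest astrocyte-like level were Gpr37l1, Gabbr1, Gprc5b, Adcyap1r1 and Gabbr2. Neuron-like cells led for 21 of the 71, beside 5.04% of all genes, and for 17 of 72 at the finer clustering. The median log2 fold change of the 71, astrocyte-like over neuron-like cells, was -1.68, and that of the 10 was 1.29.

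Of 33 genes tested for G proteins and their effectors, 4 were higher in astrocyte-like cells than everywhere else, beside 5.13% of all genes, and 3 at the finer clustering, beside 3.74%. Gnao1, the Go alpha subunit, was at 927 and 898 CPM in astrocyte-like cells and at 370 and 376 CPM in oligodendrocyte-like cells (log2 fold change 1.05 ± 0.26, adjusted p = 0.0021). Grk3, a kinase that desensitises receptors, was at 296 and 285 CPM against 73.0 and 65.2 CPM in neuroblast-like cells (2.18 ± 0.25, adjusted p = 1.2e-06). Adcy2, an adenylyl cyclase, was at 49.9 and 56.7 CPM (1.71 ± 0.33 over neuron-like cells, adjusted p = 3.1e-04). Arrb1, a beta-arrestin, passed narrowly (0.45 ± 0.18 over microglia-like cells, adjusted p = 0.042) and not at the finer clustering. The highest astrocyte-like levels of this list were those of Gnao1, Gnas, Gnai2, Grk3 and Gna13.

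Genes for the ligands, or for the enzymes that make or clear them, were read from a list of 18. The examples here were chosen after their values were seen, apart from Entpd2 and the 5 highest in astrocyte-like cells (Entpd2, Ece1, Daglb, Dagla and Sphk2). Of the 18 genes 14 were tested, and 9 led a class, beside 42.2% of all genes. Astrocyte-like cells led for 1, Entpd2. Edn1 and Edn3, which encode endothelins, were at 210 and 218 CPM and at 126 and 132 CPM in endothelial-like cells, against 2.65 and 1.90 CPM and 0.48 and 1.19 CPM in astrocyte-like cells. At the finer clustering Edn3 led in fibroblast-like cells instead. Nts, which encodes neurotensin, was at 267 and 121 CPM in mural-like cells and at 103 and 48.9 CPM in neuron-like cells (1.22 ± 0.18, adjusted p = 2.0e-05), and at 6.51 and 3.08 CPM in astrocyte-like cells. Library 1 was the higher one in both classes. Th, needed to make catecholamines, was at 19.3 and 6.69 CPM in neuron-like cells. Dbh, the gene on the list for the step to noradrenaline itself, was at 0 and 0.51 CPM there. It was at 0.29 and 0 CPM in endothelial-like cells and had no UMI in the other classes compared. The Th level therefore does not show a source of noradrenaline among these cells. Daglb, which makes the endocannabinoid 2-arachidonoylglycerol, was at 217 and 243 CPM in microglia-like cells. Entpd2, an ectonucleotidase that breaks down ATP outside the cell, was at 212 and 231 CPM in astrocyte-like cells and at 11.8 and 16.6 CPM in neuroblast-like cells (4.07 ± 0.23, adjusted p = 7.4e-10), while Entpd1 was at 435 and 341 CPM in microglia-like cells.

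**Figure D4:**
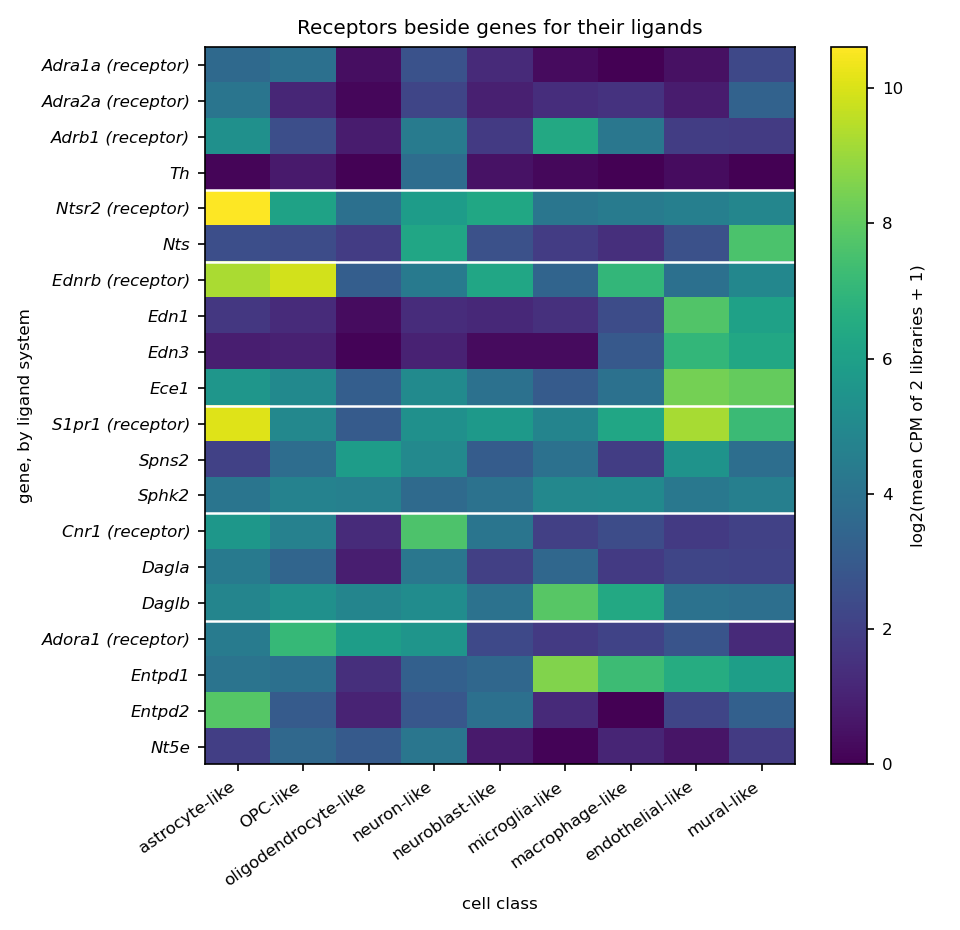
Mean level over the 2 libraries (colour, log2(CPM + 1)) of receptors and of genes for their ligands (rows, grouped by ligand system) in each class (columns). Ednrb is brightest in astrocyte-like and OPC-like cells, while Edn1 and Edn3 are brightest in endothelial-like cells, and Nts is brightest in mural-like cells. Th stands in the noradrenaline group, and Dbh is not among the rows.

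Astrocyte-like cells were then divided by Crym, the marker on which the study was built, and by Agt and Gfap, other genes that vary between astrocytes. A cell was positive when the natural log of 1 plus its UMIs per 10000 was above 0.25, which gave the same groups as at least 1 UMI. Positive cells were deeper than negative cells: median UMIs were 2549 and 5240 in Crym+ against 1623 and 1973 in Crym- cells, 6120 and 5119 against 1742 and 2192 for Agt, and 4378 and 6094 against 1764 and 2582 for Gfap. A receptor was tested if 10% or more of the positive or of the negative cells held a UMI of it. In thinned cells the groups were drawn again from the thinned counts. A cell that lost its UMIs of the dividing gene thus became negative, so values in thinned cells compare other groups of cells.

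Between Crym+ (485 and 434 cells) and Crym- cells (734 and 541 cells), 2 of the 6 receptors tested passed, beside 9.37% of all 6105 genes. Cnr1 was at 57.5 and 67.7 CPM in Crym+ and at 30.2 and 28.9 CPM in Crym- cells, with no overlap. Its log2 fold change was 1.03 ± 0.17 (adjusted p = 8.2e-06). Crym- cells held too few Cnr1 UMIs to meet the detection filter themselves, so Cnr1 was tested through the deeper Crym+ cells alone. A gene let in that way was more likely to be one higher in Crym+ cells, which was not corrected for. Within the deep astrocyte-like cluster of the finer clustering (704 cells), the Cnr1 difference was 0.96 ± 0.20 (adjusted p = 2.8e-04). It did not pass in DESeq2 (1.05, adjusted p = 0.23) or without the library block (adjusted p = 0.34). In cells thinned to 1000 UMIs Cnr1 was too sparse for the detection filter. With all genes of thinned cells tested it did not pass either (0.42, adjusted p = 0.98). Grm3 was at 236 and 309 CPM in Crym+ and at 205 and 226 CPM in Crym- cells (0.30 ± 0.095, adjusted p = 0.032), also without overlap. That call was lost under 8 of 13 alternatives, thinning included (0.17, adjusted p = 0.59). Ednrb was at 516 and 619 CPM in Crym+ and at 489 and 877 CPM in Crym- cells (-0.25 ± 0.09, adjusted p = 0.073), lower in Crym+ cells in library 2 only. It passed in thinned cells with the detection filter (-0.55, adjusted p = 0.0045), but not in thinned cells with all genes tested. The part of depth in these differences was not separated further.

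Adora1 was too sparse for the main test of Crym. It stood at 12.5 and 16.6 CPM in Crym+ and at 29.2 and 25.2 CPM in Crym- cells, without overlap. With all genes tested its log2 fold change was -0.82 ± 0.22 (adjusted p = 0.011), and in the deep cluster -0.90 ± 0.27 (adjusted p = 0.033). In thinned cells with all genes tested it was -0.54 (adjusted p = 0.98).

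Agt encodes angiotensinogen, and its split had few calls, 42 of 6741 genes (0.623%). Of the 8 receptors tested, 1 was among them. Ednrb was at 651 and 1003 CPM in Agt+ cells (162 and 290) and at 456 and 585 CPM in Agt- cells (1057 and 685), with a log2 fold change of 0.60 ± 0.11 (adjusted p = 0.014). It was higher in Agt+ cells of both libraries. It passed in thinned cells with the groups drawn again (0.94, adjusted p = 8.2e-06), in the deep cluster (0.51, adjusted p = 1.4e-05) and in the other astrocyte-like cells (0.93, adjusted p = 0.0085). It did not pass in DESeq2 (0.60, adjusted p = 0.30) or without the library block. Cnr1 was at 30.0 and 40.9 CPM in Agt+ and at 49.0 and 55.8 CPM in Agt- cells, which did not pass (-0.58 ± 0.19, adjusted p = 0.27) but did in the deep cluster (-0.70, adjusted p = 0.036).

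Gfap encodes the intermediate filament of reactive and fibrous astrocytes. Between Gfap+ (147 and 86 cells) and Gfap- cells (1072 and 889) none of the 7 receptors tested passed in edgeR or in DESeq2, beside 0.921% of all 6734 genes in edgeR. Cnr1 and Ednrb are given here because their unadjusted p in edgeR was under 0.05, and neither passed after adjustment. Cnr1 was at 40.0 and 19.6 CPM in Gfap+ against 45.5 and 54.8 CPM in Gfap- cells (log2 fold change -0.67, adjusted p = 0.21). Ednrb was at 563 and 864 against 488 and 715 CPM (0.19). Ntsr2 was at 1533 and 1779 CPM in Gfap+ and at 1512 and 1579 CPM in Gfap- cells. Of 16 effectors tested for Crym in edgeR, 2 were higher and 3 lower in Crym+ cells, and 1 of 9 other receptors was higher. For all genes the share was 9.37%, in either direction. On the log2 scale Gabbr2 was at 0.46 (adjusted p = 0.0037), Gnas at 0.25 (0.045) and Gna11 at 0.36 (0.036). Plcb1 was at -0.73 (3.9e-06), Grk3 at -0.35 (0.0079) and Itpr2 at -0.44 (0.0068). Gnas and Gna11 passed narrowly. Crym+ cells were deeper, and the calls of these 2 lists were not followed over the alternatives. Gabbr2 was lower in Gfap+ cells (-0.78, adjusted p = 2.6e-04). Hrh1 (0.99) was higher in Agt+ cells and passed narrowly in edgeR (adjusted p = 0.043). It had a UMI in 5.09% and 11.3% of all astrocyte-like cells, too few for Agt- cells to meet the detection filter. Hrh1 was thus tested through the deeper Agt+ cells alone, which makes a higher value there more likely.

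**Figure D5:**
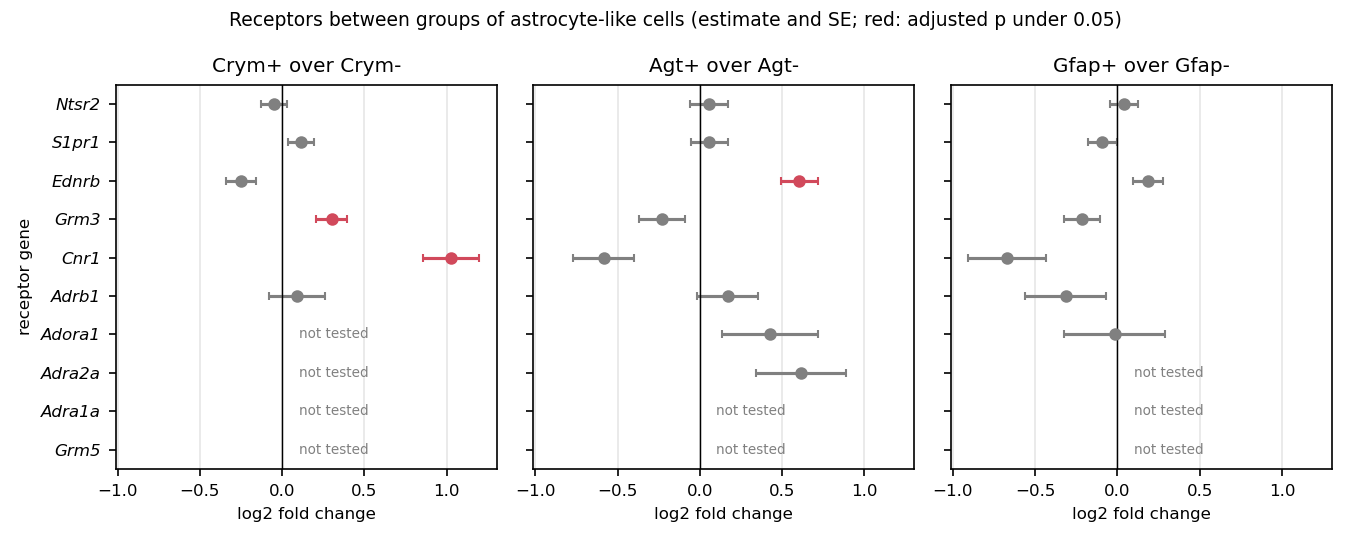
Log2 fold change of each receptor (y axis) between positive and negative astrocyte-like cells for Crym, Agt and Gfap (x axis, estimate with its standard error), red where the adjusted p was under 0.05. Cnr1 and Grm3 are red for Crym (1.03 and 0.30), Ednrb is red for Agt (0.60), no receptor is red for Gfap, and receptors below the detection filter are written as not tested.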

How the data were processed

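Single cells from the dissociated striatum of untreated adult mice were sequenced as 2 libraries (10x Chromium 3′ assay, pronase digestion, 20 µm filter, debris removal). The authors made the deposited values with Cell Ranger 4.0 on mm10, as their processing notes and the file headers give it: the files hold raw UMI counts per gene and barcode, filtered to cell barcodes, with no normalization. Depth was 44597660 and 37982720 UMIs.

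Here barcodes with under 300 genes and doublets called with Scrublet (scanpy 1.11.5; 115 and 152 barcodes) were removed. Cells were clustered in Seurat 5.3.0 (integration by library, 30 principal components, resolution 0.08, with 0.32 as the finer and 0.8 as the finest clustering) with 170 list genes (the 10 receptors, Crym, Agt and Gfap among them) and 97 cell-cycle genes left out of the clustering genes. A cluster took a class name where at least 3 markers were raised 2-fold, at least 1 of them was in its top 50 genes and no other class had more markers in its top 10. A cluster with a depth far below that of its library also needed at least 1 marker in its top 10, so shallow clusters could be named. Otherwise it stayed unnamed. Counts were summed per library and class and tested with edgeR 4.0.16 (quasi-likelihood, TMM, library as a block, Benjamini-Hochberg over all genes). All sums of a library came from the same suspension, which is why library is a block. Erythroid cells were left out of the fit (11 cells in library 2). DESeq2 1.42.0, library sizes alone, no filter, no block, doublets kept, stricter cell filters, thinning to 1000 UMIs and leaving out each library were alternatives. The receptors and lists were chosen with earlier results of these data known. Genes named beside the receptors were those higher in astrocyte-like cells than in every other class, the 5 highest of each list there, and the 3 closest in pattern to each receptor, of which 2 genes are not reported here. Intervals are exact (95%) and cover counting error only. Promoters came from RefSeq (GRCm38.p6), and gene coordinates from GENCODE (GRCm38).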

Additional observations from a re-analysis of the deposited data

How the results depend on the processing

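The 3 receptors that led in astrocyte-like cells (Ntsr2, S1pr1 and Grm3) were the same genes under every alternative run. For Cnr1, Grm5, Adrb1 and Adora1 the log2 fold change against the class furthest above astrocyte-like cells kept its sign and its call. The smaller gap of Adora1 to neuron-like cells lost its call with cells of under 20% mitochondrial UMIs, where the neuron-like class had another make-up. Leaving out a library leaves no residual spread and so gives values without a test, here over the class where the log2 fold change was lowest. Ntsr2 then stood at 4.21 to 4.23, S1pr1 at 0.74 to 1.04, Grm3 at 1.02 to 1.16, Ednrb at -0.47 to 0.079, Adra2a at 0.31 to 1.69 and Adrb1 at -1.63 to -0.96. Receptors that led some class numbered 6 instead of 7, without Adora1, in DESeq2, without the library block, at resolution 0.32, with doublets kept, with at least 500 genes and under 20% mitochondrial UMIs.

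Other listed receptors that led in astrocyte-like cells numbered 2 instead of 4 with library sizes alone, with no replicate block and in thinned cells. For Crym, 0 receptors passed instead of 2 in DESeq2, with no replicate block, in thinned cells with all genes tested and in the shallow astrocyte-like cluster. At resolution 0.32 and with doublets kept 1 passed. In thinned cells with the detection filter 1 passed as well, but it was Ednrb, lower in Crym+ cells. Cnr1 and Grm3, the 2 of the main test, were not called there. For Agt, 0 passed instead of 1 in DESeq2 and with no replicate block, and 2 in the deep cluster. The share of all genes called in each of these runs is not given, so a larger or smaller count of receptors is not read as a stronger or weaker result. Both sums of a pair came from 1 suspension, and without the library block the difference between libraries entered the error. The runs on the deep or shallow cluster and on all genes of thinned cells were chosen after the data were seen. In the other cases the cause was not tested.

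A passed value that changed sign was Grm5 over mural-like cells, 1.33 and -0.27 with doublets kept, with adjusted p up to 0.97 over the alternatives. The sign changes that follow were of values that had not passed their test. Over its closest class Adra1a was -0.31 with library sizes alone, and Adra2a -1.21 at resolution 0.32, where fibroblast-like cells became that class, and -0.39 in thinned cells. For Crym, Ntsr2 was 0.021 with all genes and 0.011 in the deep cluster, and S1pr1 was -0.13 in thinned cells, -0.049 in thinned cells with all genes and -0.066 in the shallow cluster. For Agt, Grm3 was 0.12 in the shallow cluster, and S1pr1 was -0.0072, -0.21 and -0.074 in thinned cells, in thinned cells with all genes and in the deep cluster. For Gfap, Ntsr2 was -0.26, -0.59 and -0.069 in thinned cells, in thinned cells with all genes and in the shallow cluster, Ednrb -0.12 and -0.27 in the latter 2, Adora1 0.030 with library sizes alone and 0.066 with at least 500 genes, and Cnr1 0.16 in thinned cells with all genes.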
